A study of Mus musculus with 30 samples.

Results

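The cytosolic ribosomal protein genes were followed in mouse liver over 5 diets. The members were the rows of the deposited liver tables whose gene symbol was Rpl or Rps followed by a number, with or without a trailing letter, digit or l, together with *Rplp0*, *Rplp1*, *Rplp2*, *Rpsa* and *Fau*. There were 82 of them among 14173 genes, 49 of the large and 33 of the small ribosomal subunit, and 4 of the 82 were paralogs with a trailing l in the name (*Rpl7l1*, *Rpl22l1*, *Rpl36al* and *Rps27l*). Male C57BL/6J mice were fed a diet limited in protein and in the sulfur amino acids methionine and cysteine, or a control diet, and liver mRNA was read by 3′ mRNA sequencing (QuantSeq), in which each transcript gives a read near its 3′ end. The Cas-20% group (labelled NP) ate 20% casein with 0.57 gm% methionine and 0.41 gm% cysteine. The Cas-5% group (LP) ate 5% casein with 0.15 gm% methionine and 0.1 gm% cysteine. The Soy-20% group (20Soy) ate 20% soy protein with 0.22 gm% of each amino acid, and the Soy-20% + SAA group (20Soy_SAA) ate the same with added sulfur amino acids to 0.58 gm% methionine and 0.41 gm% cysteine. The Soy-10% group (10Soy, 11.5% soy protein by its label) received 0.13 gm% of each. No group is labelled with a genetic change. The mice were acclimated for 2 weeks, on Cas-20% before the casein diets and on Soy-20% before the soy diets, were changed at 12 weeks of age, ate the diet for 12 weeks and were 6 months old at collection after a 4 h fast. Each diet had 10 mice, and the livers of 6 per diet, 30 in all, were sequenced, so that each library was 1 animal.

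Each cytosolic ribosome joins a small subunit, which reads the mRNA, to a large subunit, which forms the peptide bond. Most of its proteins are single copies of 1 gene each, are mostly needed in equal amounts, and come from mRNAs that are among the most abundant of any cell. These mRNAs usually begin with a terminal oligopyrimidine (TOP) tract, a run of C and U at the 5′ end that lets the nutrient kinase complex mTORC1 and the RNA-binding protein LARP1 control their translation. In liver they make albumin and the other secreted plasma proteins besides the proteins of the hepatocyte itself.

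Library totals ranged from 7694015 to 14565542 reads, and all 82 members passed the filter on low counts in every comparison. Levels are given as normalised counts, the deposited counts divided by the size factor of each library, and since a transcript gives about 1 read whatever its length they were not divided by length. Pseudogenes of ribosomal proteins are many, and reads can be shared with them. The 48 rows named as such held counts equal to 0.285 to 0.365% of the members' counts. How shared reads were counted is not known, so this share does not bound the uncertainty in the level of a single member. The 8 hepatocyte markers examined were all above the filter. One liver of Soy-10% (number 4) held pancreatic acinar transcripts, with a summed normalised count of 6556 over the acinar markers against at most 8.6 in any other library. Libraries 3 to 6 of Soy-20% + SAA stood apart by base composition. Their log2 counts rose with the GC content of the last 200 nucleotides of the transcript by 0.0586, 0.187, 0.177 and 0.204 per 10 percentage points, against −0.0591 to 0.0272 in the other 26 libraries, among them libraries 1 and 2 of the same diet. Comparisons with that diet are therefore given with and without them. In whole liver, fewer cells of a type and less RNA per cell cannot be told apart.

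The sequence around the transcription start is shown for members that the later comparisons turn on. Of the 82 members 62 had a start in RefSeq, and a 30-base window was taken over each start, 15 bases before it and 15 from it on. A C followed by at least 4 further C or T was found anywhere in this window in 40 of the 62 (64.5%) and in 10885 of 27025 genes with a listed start (40.3%). A TOP tract has this form but begins at the 5′ end of the mRNA, so these are not counts of TOP tracts. The capitals mark that run where there is one. The first 3 members were among those with the smallest p in a diet comparison, the next 2 did not pass the test in the casein comparison, *Rps6* is the member that S6 kinase phosphorylates, and the last 3 include the pair *Rps27* and *Rps27l* and a paralog with no run. Coordinates are on GRCm38.p6, with strand, and each window is written 5′ to 3′ on that strand.
Rpl13a, chr7:45128731-45128760, minus strand: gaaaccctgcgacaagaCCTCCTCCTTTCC
Rps12, chr10:23787195-23787224, minus strand: taccgtcatgcggccaccgccggCCTTTTC
Rps18, chr17:33955651-33955680, minus strand: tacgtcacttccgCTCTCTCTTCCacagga
Fau, chr19:6057932-6057961, plus strand: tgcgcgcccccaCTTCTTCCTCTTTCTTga
Rps2, chr17:24720048-24720077, plus strand: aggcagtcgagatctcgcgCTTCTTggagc
Rps6, chr4:86857353-86857382, minus strand: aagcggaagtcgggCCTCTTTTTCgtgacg
Rps27, chr3:90213634-90213663, minus strand: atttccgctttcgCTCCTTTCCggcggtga
Rps27l, chr9:66946071-66946100, plus strand: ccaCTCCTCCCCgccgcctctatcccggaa
Rpl7l1, chr17:46782642-46782671, minus strand: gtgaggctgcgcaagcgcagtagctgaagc
A run is a match of letters and not a measured 5′ end. The marked run of *Rps27l* lies wholly before the listed start, and those of *Rpl13a*, *Rps2* and *Rps12* begin after it. *Rps27l* has a second listed start whose window holds none. The letters CGGAAG or, on the other strand, CTTCCG, the core bound by ETS-family factors such as GABPA, were found within the 300 bases from 250 before to 50 after a start in 42 of the 62 members (67.7%), against 5075 of 27025 genes (18.8%). The members lay on 20 chromosomes, with 14 of the 82 on chromosome 7.

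The levels of the members in liver spanned a wide range. *Rplp1*, an acidic protein of the stalk to which elongation factors bind, had the highest mean over the 30 livers, 8576 normalised counts. It was followed by *Rpl37* (7014), *Rps14* (5712), a protein of the platform of the small subunit, *Rpl4* (5425), which lines the tunnel through which the new chain leaves, and *Rps21* (5403). The lowest were *Rpl24* at 66.8, *Rpl10a* at 166, *Rps6* at 178, *Rpl15* at 342 and *Rpl29* at 402. A low count at an annotated 3′ end need not be a low transcript number, since reads at another 3′ end or on a pseudogene row are not in it.

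The share of all reads that fell on the 82 members was lowest in Cas-20% and highest in Cas-5%. It was 1.39 to 1.65% in the Cas-20% livers, with a median of 1.54%, and 2.10 to 2.42% in the Cas-5% livers, with a median of 2.16%. No Cas-5% liver lay within the range of the Cas-20% livers. The share was 1.55 to 1.90% in Soy-20% (median 1.71%), 1.60 to 1.90% in Soy-20% + SAA (median 1.74%) and 1.87 to 2.09% in Soy-10% (median 2.01%). The 3 control diets overlapped one another in part, and the lowest Soy-10% liver was inside the ranges of both Soy-20% diets. As ratios of the group means, the share was 1.45 in Cas-5% over Cas-20%, 1.149 in Soy-10% over Soy-20% + SAA and 1.147 in Soy-10% over Soy-20%. With the 100 most abundant genes left out of the total, which a few secreted liver proteins dominate, the first of these became 1.353 and the second 1.109. The share is a sum over genes chosen with results known and was not tested.

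**Figure D1:**
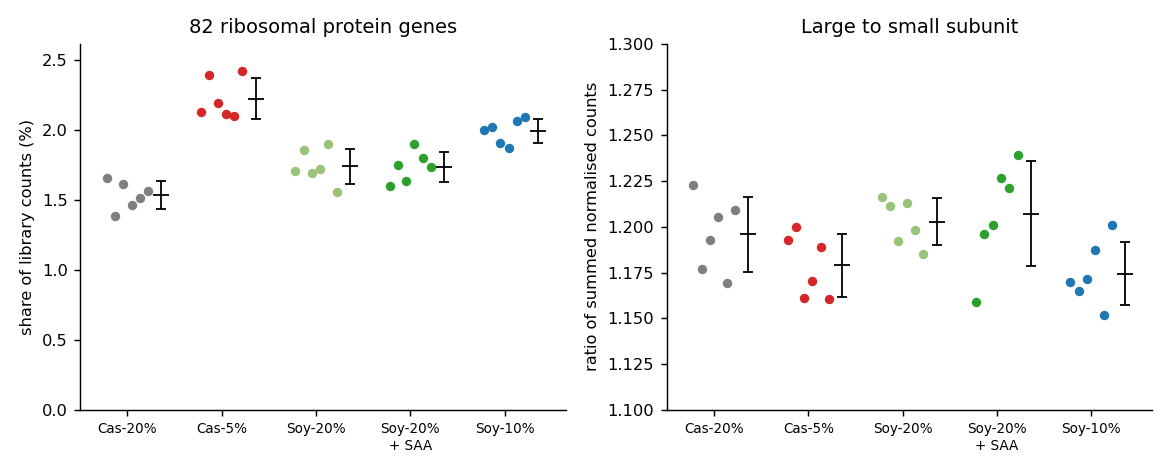
Left, the percent of each library's reads on the 82 ribosomal protein genes; right, the summed normalised counts of the large subunit genes divided by those of the small subunit genes (axis not from 0). Points are livers, 6 per diet, and bars are mean ± SD: the Cas-5% livers, at 2.10 to 2.42%, lie above all 6 Cas-20% livers, at 1.39 to 1.65%. The mean subunit ratio runs from 1.174 in Soy-10% to 1.207 in Soy-20% + SAA.

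Casein restriction raised most of the ribosomal protein genes. Compared to Cas-20% livers, 64 of the 82 members in Cas-5% livers were higher and none was lower at an adjusted p of at most 0.05 (edgeR quasi-likelihood test, Benjamini-Hochberg over 12076 genes). Of all genes tested 24.9% passed in either direction and 11.6% were higher. The median log2 fold change over the members was 0.355, against 0.0161 over all genes, and 80 of the 82 were above 0. In 37 members the lowest Cas-5% liver was above the highest Cas-20% liver, which held for 5.14% of all genes. Scaling by library totals instead of TMM (trimmed mean of M-values) moved the median of all genes to 0.195 and that of the members to 0.532, with 78 called.

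The members with the smallest p did not overlap between the casein groups. *Rpl13a*, a large subunit protein also known for a role in interferon-γ dependent translational silencing, was at 2324, 2813 and 3409 in Cas-20% and at 4405, 4699 and 5885 in Cas-5%. Its log2 fold change of 0.77 ± 0.10 (edgeR adjusted p = 2.39e-05) was the largest after that of *Rps6*. *Rpl12*, at the base of the stalk, went from a median of 1330 (1167 to 1608) to 2099 (1832 to 2515), a log2 change of 0.69 ± 0.09. Both genes had ranges in the restricted livers that began above the end of the control range.

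*Rps12*, a protein of the beak of the small subunit, stood at 3003, 3321 and 3886 in Cas-20% and at 4206, 5330 and 5804 in Cas-5%, a log2 fold change of 0.63 ± 0.09 (edgeR adjusted p = 5.97e-05). *Rps3a1* rose from a median of 772 (652 to 987) to 1201 (1126 to 1389), or by 0.64 ± 0.10 on the log2 scale. *Rpl23* and *Rpl21*, both of the large subunit, rose by 0.62 ± 0.09 and 0.50 ± 0.08, from medians of 2519 and 1582 to 3853 and 2156. In each of these 4 genes the groups were again apart.

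The stalk proteins did not move by one amount. *Rplp0*, the scaffold that anchors the stalk, was at 1455, 1535 and 1624 in Cas-20% and at 1952, 1989 and 2401 in Cas-5%, with a log2 fold change of 0.46 ± 0.07 (edgeR adjusted p = 0.000105). *Rplp2* was at 2953, 3340 and 3713 against 3517, 3755 and 4321, and its change of 0.23 ± 0.07 passed at an edgeR adjusted p of 0.0266. *Rplp1*, its partner, had overlapping ranges of 6449 to 9312 and 7925 to 9648 and a change of 0.14 ± 0.09 (edgeR adjusted p = 0.286), which did not pass. The differences among the 3 changes were not tested. *Rpsa*, a small subunit protein also called the laminin receptor, was at 1016 to 1204 in Cas-20% and at 1345 to 1508 in Cas-5% and rose by 0.37 ± 0.06 (edgeR adjusted p = 0.000254).

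The largest log2 fold change belonged to *Rps6*, one of the 3 members of lowest count. It was at 89.2, 130 and 178 in Cas-20% and at 182, 216 and 394 in Cas-5%, a change of 0.86 ± 0.20 (edgeR adjusted p = 0.00432). The groups did not overlap, but Cas-5% liver 2 alone reached 394, the next being at 256. *Rpl24*, lower still, had ranges of 49.2 to 71.1 and 63.4 to 90.2 and a change of 0.32 ± 0.12 that did not pass (edgeR adjusted p = 0.0599).

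The 18 members that did not pass were *Fau*, *Rpl6*, *Rpl7l1*, *Rpl10a*, *Rpl15*, *Rpl22l1*, *Rpl23a*, *Rpl24*, *Rpl27*, *Rpl27a*, *Rpl29*, *Rpl32*, *Rpl35*, *Rpl36*, *Rpl41*, *Rplp1*, *Rps2* and *Rps27l*. *Fau*, which encodes a ribosomal protein fused to a ubiquitin-like protein, was at 1891, 1915 and 2104 in Cas-20% and at 1702, 1970 and 2168 in Cas-5%, a log2 change of 0.03 ± 0.07 (edgeR adjusted p = 0.822). *Rps2*, chosen for its values, is a protein of the mRNA entry site and was at 3316, 3733 and 4162 against 3249, 3500 and 3801. With a change of −0.07 ± 0.07 (edgeR adjusted p = 0.492) it was, with *Rpl7l1*, one of the 2 members below 0. Both *Fau* and *Rps2* have a pyrimidine run in the windows printed above. Over all members with a listed start, 31 of the 40 with a run and 18 of the 22 without were called, with medians of 0.368 and 0.346, and 15 of the 20 with no listed start.

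Both subunits rose under casein restriction. Of the large subunit 34 of 49 genes passed, with a median log2 fold change of 0.326, and of the small subunit 30 of 33, with a median of 0.396. The groups did not overlap in 20 and 17 of them. Without the 4 paralogs the counts were 33 of 46 and 30 of 32, and the medians 0.330 and 0.401. Summed normalised counts were 1.26 times as high in Cas-5% for the large and 1.28 times as high for the small subunit. The ratio of large to small subunit sums was 1.196 ± 0.0205 (SD, n = 6) in Cas-20% and 1.179 ± 0.0172 in Cas-5%, a difference about as large as the SD. It was 1.203 ± 0.0128 in Soy-20%, 1.207 ± 0.0288 in Soy-20% + SAA and 1.174 ± 0.0173 in Soy-10%. The Soy-10% mean was below both Soy-20% means by more than its own SD, with overlapping ranges. These ratios were not tested.

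**Figure D2:**
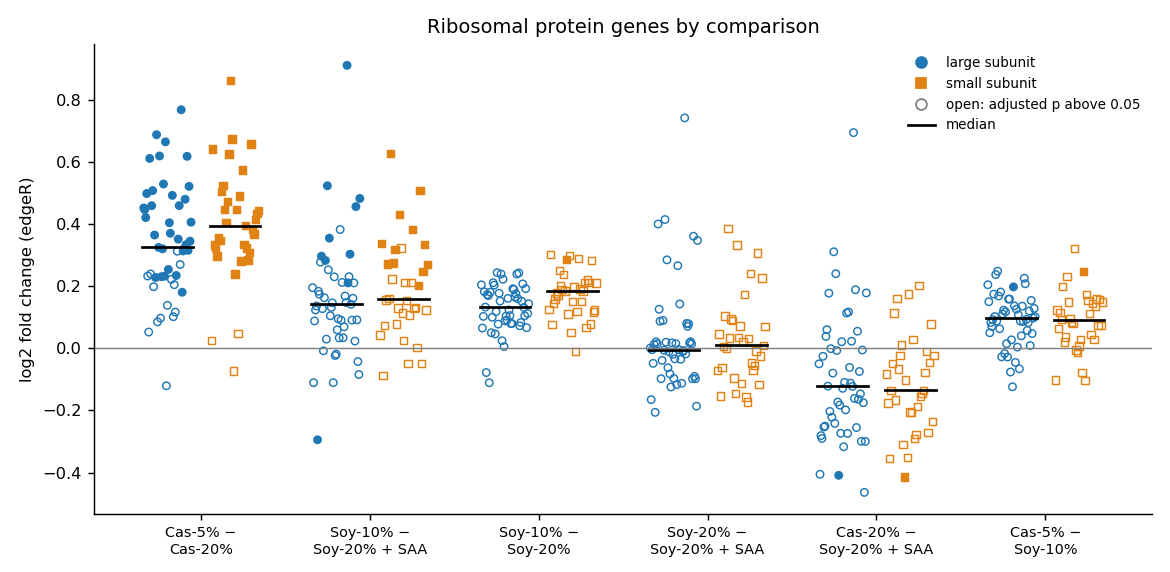
Log2 fold change of each of the 82 ribosomal protein genes in each diet comparison; circles are large and squares small subunit genes, filled symbols have an edgeR adjusted p of at most 0.05, and black lines are the medians of each subunit. The casein column holds 64 filled symbols, with medians of 0.326 and 0.396, and the Soy-10% against Soy-20% + SAA column 22, with medians of 0.142 and 0.160.

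The size of the casein change was little related to base composition or level. Over the 82 members the log2 fold change and the GC content of the 3′ end had r = −0.218 and rho = −0.237, and the fold change and the mean level r = −0.006, as a description over genes measured in the same 12 libraries. The 41 members of lower GC had 33 called and a median of 0.396, and the 41 of higher GC had 31 and 0.327. *Rpl5*, which with *Rpl11* forms a particle with a small ribosomal RNA that can bind MDM2, had the second lowest GC content (33%) and rose by 0.67 ± 0.13 (edgeR adjusted p = 0.000879). *Rpl15*, the lowest in GC (30%), did not pass, at 0.09 ± 0.11. At the high end *Rps15* (58%) rose by 0.32 ± 0.07 and *Rpl11* (56.5%) by 0.25 ± 0.08, while *Rpl36* (58%) was at 0.12 ± 0.07 (edgeR adjusted p = 0.237).

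Markers of other cell types also differed between the casein groups. Of the 7 stellate cell markers 3 were higher in Cas-5%, and their summed normalised count was 3605 to 4451 in Cas-20% and 4157 to 5550 in Cas-5%. Of the 7 sinusoidal endothelial markers 2 were higher, with sums of 3053 to 3376 and 3441 to 3656. Of the 5 erythroid markers 4 were lower, with sums of 15730 to 34940 and 11500 to 19810. Of the 8 hepatocyte markers 2 were higher and 3 lower, and none of 9 Kupffer cell, 8 leukocyte or 2 cholangiocyte markers tested passed. Cas-5% livers 2 and 6 had both the highest ribosomal protein shares (2.39 and 2.42%) and the highest stellate sums of that diet (5517 and 5550). The part of these markers in the result was not tested.

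**Figure D3:**
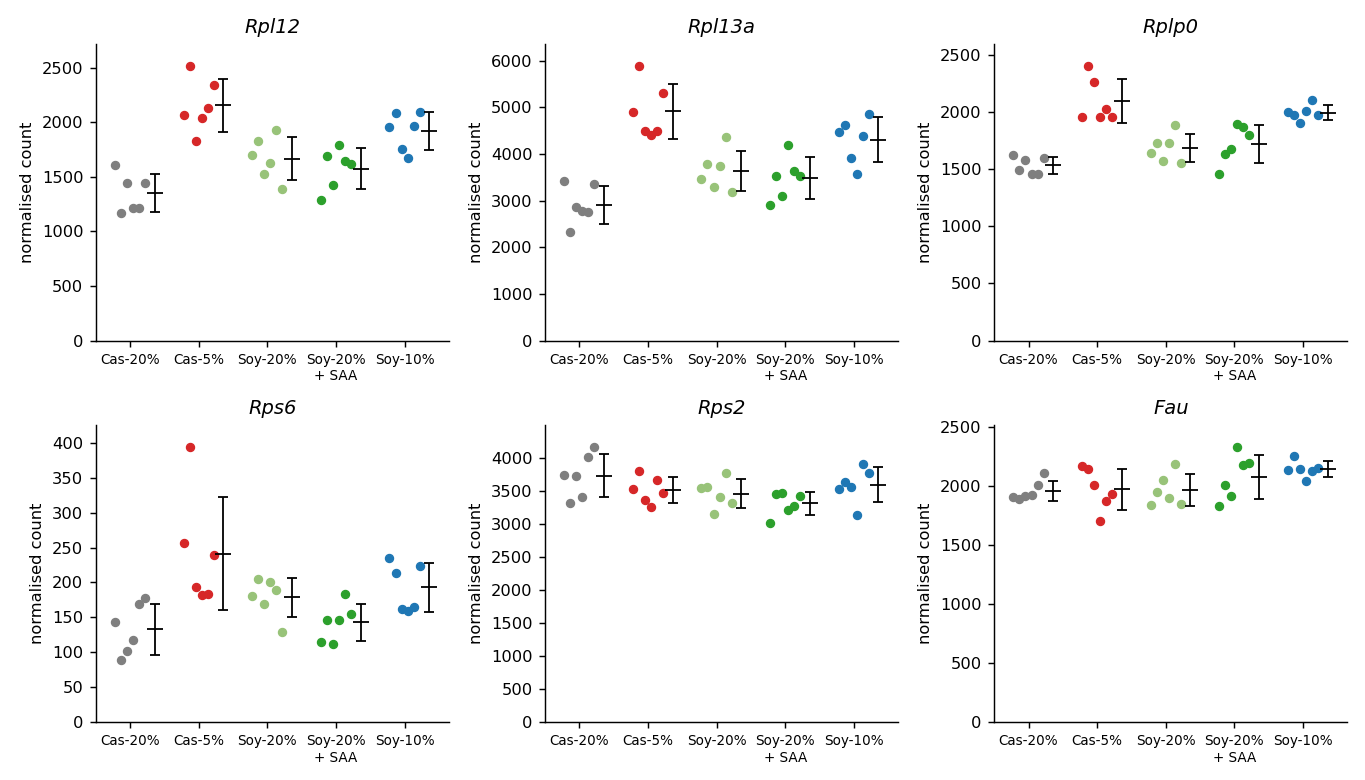
Normalised counts of *Rpl12*, *Rpl13a*, *Rplp0*, *Rps6*, *Rps2* and *Fau* in each liver, with mean ± SD per diet (6 livers each). In the first 4 genes the Cas-5% points lie above all Cas-20% points, and in *Rps2* and *Fau* the ranges of the 5 diets overlap.

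Under soy restriction the members also lay mostly higher, by less. Of the 82 members in Soy-10% livers, 21 were higher and 1 was lower than in Soy-20% + SAA by edgeR, where 17% of all genes passed in either direction and 8.51% were higher. The median of the members was 0.151, against −0.0097 over all genes, and 71 were above 0. The groups were apart in 11 members, all higher in Soy-10%, and in that direction in 2.9% of all genes. By subunit, 9 large subunit genes were higher and 1 lower (median 0.142), and 12 small subunit genes were higher (median 0.160).

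*Rpl19*, a large subunit protein that reaches into the interface with the small one, had the smallest p. It was at 356, 410 and 459 in Soy-20% + SAA and at 545, 602 and 607 in Soy-10%, a log2 fold change of 0.52 ± 0.08 (edgeR adjusted p = 0.00105). *Rps18*, at the head of the small subunit, was at 1332, 1611 and 1952 against 2260, 2548 and 2765, a change of 0.63 ± 0.09 (edgeR adjusted p = 0.0011). *Rpl35a*, a gene mutated in some patients with Diamond-Blackfan anaemia, was at 527, 580 and 604 against 694, 780 and 888 and rose by 0.46 ± 0.07. In these 3 genes the highest control liver was below the lowest Soy-10% liver.

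*Rps23*, of the decoding centre, rose by 0.51 ± 0.10 from a median of 1033 to 1417. *Rps3*, of the mRNA entry site, rose by 0.34 ± 0.07 from 2234 to 2740, *Rps28* by 0.38 ± 0.08 from 2417 to 3185, and *Rps16* by 0.27 ± 0.06 from 1134 to 1404. *Rpl9* rose by 0.48 ± 0.11, with overlapping ranges of 1061 to 1580 and 1493 to 1942. The member that fell was *Rpl27a*, at 954, 1185 and 1479 in Soy-20% + SAA and at 897, 969 and 1081 in Soy-10%, a log2 change of −0.29 ± 0.09 (edgeR adjusted p = 0.0362).

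Several of these values differed between libraries 3 to 6 and libraries 1 and 2 of Soy-20% + SAA. The largest change of the comparison, that of *Rpl7a* at 0.91 ± 0.21 (edgeR adjusted p = 0.0129), shows it best, a gene singled out after its values were seen. Its normalised counts in libraries 1 to 6 of Soy-20% + SAA were 1764, 1846, 1152, 650, 854 and 844, so that libraries 1 and 2 were above the others. Against libraries 1 and 2 alone the *Rpl7a* change was 0.30 (edgeR adjusted p = 0.099), and against libraries 3 to 6 alone 1.36. Between libraries 3 to 6 and 1 to 2 of the same diet the members differed by −1.05 (*Rpl7a*) to 0.46 (*Rpl4*) on the log2 scale, with a median of 0.17, and 24 of the 82 did not overlap, 18 of them higher and 6 lower in libraries 3 to 6. The same count over all genes was not made, so these 24 are not a result about the members. *Rpl4* was at 3955 and 5387 in libraries 1 and 2 and at 5257 to 6811 in 3 to 6. *Rps18* was at 1802 and 1952 against 1332 to 1710. Over the 82 members alone the log2 counts did not follow GC content in libraries 3 to 6 beyond the range of other livers. The slopes were −0.0008, 0.0469, −0.0199 and −0.0237 per 10 percentage points. Elsewhere they ran from −0.0632 (Cas-5% liver 6) to 0.1164 (Cas-20% liver 2). Whether the GC slope of these libraries over all genes set the values was not tested gene by gene.

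Taking that slope into the fit, or leaving the libraries out, changed which genes passed. With the GC slope of each library as a covariate 17 members were higher and none lower, with a median of 0.223, and 9 of the 22 calls were shared. In that fit 362 of 11983 genes passed. Against libraries 1 and 2 alone 11 were higher and none lower, with a median of 0.224, and 7 were shared, where 317 of 12483 genes passed. The genes called in all 3 were *Rpl19*, *Rpl35a*, *Rplp0*, *Rps16*, *Rps18*, *Rps3a1* and *Rpsa*. Against libraries 3 to 6 alone 19 were higher and 3 lower, with a median of 0.121. There 4182 of 12183 genes passed, a larger share than among the members. The fall of *Rpl27a* rested on libraries 3 to 6: libraries 1 and 2 were at 954 and 1140, against 897 to 1081 in Soy-10%. Of the 9 Kupffer cell and 7 sinusoidal endothelial markers 2 each were higher in Soy-10%, and 1 of 8 hepatocyte and 1 of 2 cholangiocyte markers tested were lower. The cholangiocyte sum was 266 to 352 in Soy-10% and 346 to 519 in Soy-20% + SAA. Without Soy-10% liver 4, the one with acinar transcripts, 24 members passed, 23 higher and 1 lower, where 1733 of 12109 genes did.

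**Figure D4:**
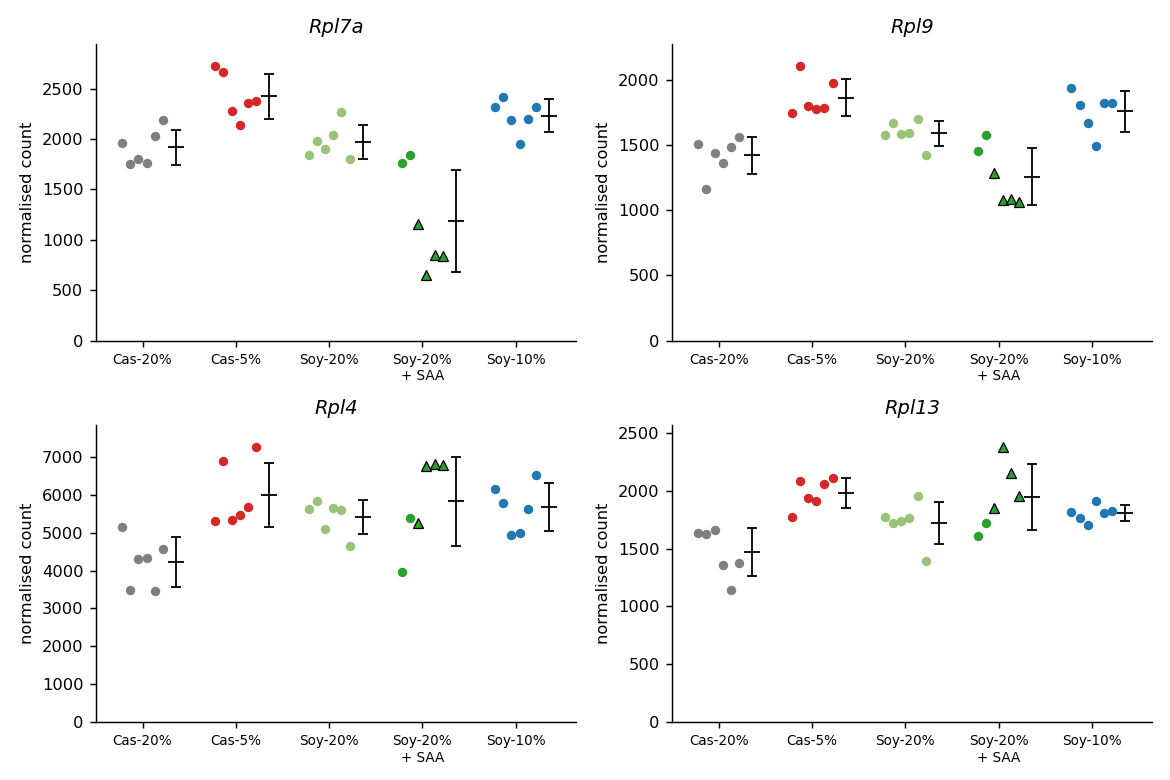
Normalised counts of *Rpl7a*, *Rpl9*, *Rpl4* and *Rpl13* in each liver of the 5 diets, with libraries 3 to 6 of Soy-20% + SAA drawn as triangles; bars are mean ± SD per diet. In *Rpl7a* the triangles, at 650 to 1152, lie below libraries 1 and 2 of the same diet, at 1764 and 1846.

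Soy-10% was also compared to Soy-20% without added sulfur amino acids, whose libraries showed no such slope. The median of the members was 0.156, against −4e-04 over all genes, and 79 of the 82 members were above 0. With the supplemented control it was 0.151 with all livers, 0.223 with the GC covariate and 0.224 against libraries 1 and 2 alone. An unadjusted edgeR p under 0.05 against Soy-20% was found in 45 of the 82 members and in 1460 of 11897 genes. After adjustment 1 member passed, where 0.866% of all genes did. That member was *Rps12*, at 3827, 3911 and 4701 in Soy-20% and at 4566, 4949 and 5445 in Soy-10%, a change of 0.29 ± 0.06 (edgeR adjusted p = 0.0463). It passed in 5 of 20 alternative settings. The groups did not overlap in *Rplp0*, *Rps15* and *Rpsa*, 3 of the 82, against 0.597% of all genes. *Rplp0* was at 1556 to 1886 in Soy-20% and at 1903 to 2103 in Soy-10%, with a change of 0.24 ± 0.06 (edgeR adjusted p = 0.0614). The medians were 0.133 in the large and 0.185 in the small subunit. Of the markers, 1 of the 2 cholangiocyte genes tested was lower in Soy-10%, with sums of 266 to 352 against 394 to 548, and none of the other cell types' markers passed. The part of these markers was not tested. The 3 Soy comparisons share groups with one another.

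The presence of added sulfur amino acids at 20% soy gave no called member. In Soy-20% against Soy-20% + SAA edgeR called 0 of the 82, where 0.00838% of all genes passed. An unadjusted edgeR p under 0.05 was found in 14 of the 82 members and in 2892 of 11932 genes, a smaller share among the members. DESeq2 called 6, where 873 of 11695 genes passed. The median was 0.004 and 42 members were above 0, but the sign of the median turned with the Soy-20% + SAA libraries used. It was 0.0893 with the GC covariate and 0.084 against libraries 1 and 2 alone, with 68 and 69 members above 0 and none called in either. Against libraries 3 to 6 alone it was −0.0544, with 29 above 0 and 14 called, 10 higher and 4 lower in Soy-20%. There 2978 of 12127 genes passed.

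The casein and soy controls of like methionine and cysteine content were compared next. In Cas-20% against Soy-20% + SAA 62 of the 82 members were below 0, with a median of −0.126, and 2 were called, both lower in Cas-20%, about the share of all genes that passed, 2.43%. The median was −0.0438 with the GC covariate, −0.0416 against Soy-20% + SAA libraries 1 and 2 alone and −0.1895 against libraries 3 to 6 alone. *Rps12* fell by 0.41 ± 0.09 on the log2 scale (edgeR adjusted p = 0.042), with medians of 3321 in Cas-20% and 4550 in Soy-20% + SAA. *Rpl36a*, on the X chromosome, had a change of −0.41 ± 0.10 (edgeR adjusted p = 0.0435), with medians of 1870 and 2551. Neither passed with the GC covariate or against libraries 1 and 2 alone. Of the 5 erythroid markers 4 and of the 8 hepatocyte markers 2 were higher in Cas-20%.

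Side by side, few members passed between the restricted diets, though the share of reads on the members was apart. It was 2.10 to 2.42% in Cas-5% and 1.87 to 2.09% in Soy-10%, a ratio of means of 1.115. With the 100 most abundant genes left out, the ranges were 4.18 to 4.90% and 3.85 to 4.23% and overlapped. The share was not tested. In Cas-5% against Soy-10% 70 of the 82 members were above 0, with a median of 0.095, and 2 passed, where 10.7% of all genes did. *Rps20* was at 4271, 4575 and 5339 in Cas-5% and at 3606, 4117 and 4240 in Soy-10% without overlap, a change of 0.25 ± 0.07 (edgeR adjusted p = 0.0275). *Rpl14*, of the large subunit, rose by 0.20 ± 0.06, from a median of 2075 in Soy-10% to 2321 in Cas-5%. Of the 7 stellate cell markers 5 and of the 2 cholangiocyte markers tested 1 were higher in Cas-5%, and 1 of 8 hepatocyte and 1 of 5 erythroid markers were lower.

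A direct test of the difference between the casein change and the soy change, taken against Soy-20% + SAA, called 11 members. All 11 had the larger change under casein, where 8.69% of all genes passed in either direction and 3.2% in this one. The median difference over the members was 0.187 on the log2 scale, and 6 of the 11 were large and 5 small subunit genes. In *Rpl13* the change was 0.45 ± 0.09 under casein and −0.11 ± 0.09 under soy, a difference of 0.55 (edgeR adjusted p = 0.00994). *Rps20* and *Rps12* had differences of 0.53 and 0.49. Further members of the 11 were *Rpl7* (0.42), *Rps15a* (0.43), *Rpl21* (0.37), *Rps19* (0.39), a gene often mutated in Diamond-Blackfan anaemia, *Rpl8* (0.37), which lies near the peptidyl transferase centre, *Rpl13a* (0.46) and *Rpl4* (0.56). None of the 11 passed once the GC slope was a covariate, nor when the control was Soy-20% + SAA libraries 1 and 2 alone. In those fits 536 of 12532 and 296 of 13035 genes passed. With libraries 3 to 6 alone 34 members passed, where 2728 of 12724 genes did. The median difference over the members was 0.157 with the covariate (71 above 0), 0.136 with libraries 1 and 2 alone (67 above 0) and 0.251 with libraries 3 to 6 alone, against 0.187 (70 above 0) in the fit of all livers. With Soy-20% as the soy control 9 members passed, 4 of them among the 11, where 746 of 12450 genes did.

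The paralogs were compared with the genes they are named after. *Rps27l*, a gene known to be induced by p53, lies at chr9:66946086-66949516 on the plus strand, and *Rps27* at chr3:90212522-90213651 on the minus strand (GRCm38). *Rps27* rose under casein restriction, from 2035, 2476 and 2739 in Cas-20% to 2881, 3180 and 3626 in Cas-5% (log2 fold change 0.41 ± 0.09, edgeR adjusted p = 0.00243). *Rps27l* was at 2475, 2928 and 3375 and at 2266, 3050 and 3711, a change of 0.05 ± 0.10 that did not pass (edgeR adjusted p = 0.765). As a percent of *Rps27*, *Rps27l* fell from 108 to 128% (median 122%) in the Cas-20% livers to 78.7 to 104% (median 95.4%) in the Cas-5% livers, with no overlap. The log2 difference of the ratio was −0.369, with an adjusted p of 0.0173 by an exact two-sided permutation test. That test was chosen after the data were seen and was adjusted over 24 tests, of 4 pairs in 6 comparisons, and its smallest possible unadjusted p is 0.00216.

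*Rpl7l1*, at chr17:46773907-46782672 on the minus strand, is a paralog of *Rpl7* at chr1:16101295-16104662. *Rpl7* was at 2336, 2668 and 2889 in Cas-20% and at 2792, 3383 and 3565 in Cas-5% (0.35 ± 0.08, edgeR adjusted p = 0.00296), and *Rpl7l1* at 348, 419 and 498 against 364, 383 and 400 (−0.12 ± 0.08, edgeR adjusted p = 0.314). The ratio went from 14.9 to 17.2% in Cas-20% to 10.4 to 13.0% in Cas-5%, again without overlap, a log2 difference of −0.456 (exact permutation test, adjusted p = 0.0173). It was 12.3 to 17.4% in Soy-20%, 10.9 to 15.8% in Soy-20% + SAA and 12.5 to 14.9% in Soy-10%. The ratio was also higher in Cas-20% than in Soy-20% + SAA, by 0.312 (exact permutation test, adjusted p = 0.0346), and lower in Cas-5% than in Soy-10%, by a log2 difference of −0.2 (adjusted p = 0.0312 by the same exact test). The first of these calls was lost in 5 of 12 settings that left out 1 liver, each time a Cas-20% liver (1, 2, 3, 4 or 6, adjusted p up to 0.0635), and the second without Soy-10% liver 3 (adjusted p = 0.0519, exact test). In Soy-20% + SAA the ratio was 15.8 and 13.7% in libraries 1 and 2 and 14.4, 10.9, 11.9 and 11.2% in libraries 3 to 6.

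The other pairs moved differently. *Rpl36al* and *Rpl36a* both rose under casein restriction, by 0.46 ± 0.14 and 0.53 ± 0.08, and their ratio overlapped, at 26.6 to 33.2% in Cas-20% and 22.3 to 34.5% in Cas-5%. It was 25.8 to 34.7% in Soy-20%, 17.1 to 26.4% in Soy-20% + SAA and 15.8 to 27.1% in Soy-10%. The ratio was higher than in Soy-20% + SAA by 0.488 in Cas-20% (exact permutation test, adjusted p = 0.0173) and by 0.508 in Soy-20% (adjusted p = 0.026), and Soy-10% was below Soy-20% by a log2 difference of −0.369 (adjusted p = 0.0371). The last of these was lost in 7 of 12 settings that left out 1 liver (Soy-20% liver 1, 3, 4 or 6, or Soy-10% liver 2, 3 or 5), with adjusted p up to 0.0891 and a difference of −0.258 without Soy-10% liver 5. Libraries 1 and 2 of Soy-20% + SAA, at 21.1 and 17.1%, were also below the lowest Soy-20% and Cas-20% livers, and libraries 3 to 6 were at 19.3 to 26.4%. *Rpl22l1* was at a median of 408 in Cas-20% and 468 in Cas-5% (0.22 ± 0.10, edgeR adjusted p = 0.134) and *Rpl22* at 2397 and 2861 (0.31 ± 0.08, edgeR adjusted p = 0.0112). Their ratio had a median of 18.0% in Cas-20%, 15.3% in Cas-5%, 16.4% in Soy-20%, 13.5% in Soy-20% + SAA and 17.6% in Soy-10%, with overlapping ranges, and passed in none of the 6 comparisons with all livers. Without Soy-20% + SAA liver 2 it passed against that diet in Soy-10% (0.411, exact permutation test, adjusted p = 0.0289) and in Cas-20% (0.387, adjusted p = 0.0364). Under soy restriction the *Rps27l* to *Rps27* ratio, at 97.3 to 114% in Soy-10% against 104 to 151% in Soy-20%, did not pass either (−0.255, exact permutation test, adjusted p = 0.0577), though it did without Soy-20% liver 5 (adjusted p = 0.0208).

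**Figure D5:**
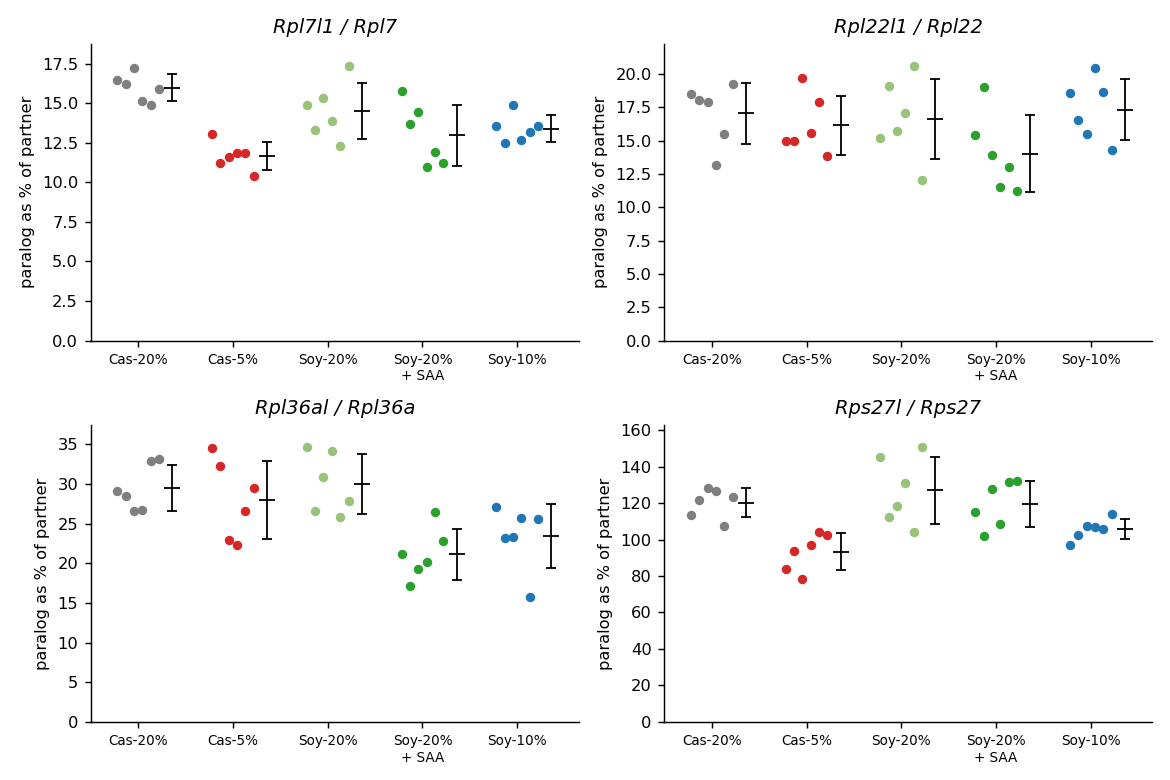
Each paralog's normalised count as a percent of that of the gene it is named after, per liver, with mean ± SD for 6 livers per diet. For *Rpl7l1* and *Rps27l* the Cas-5% points, at 10.4 to 13.0% and 78.7 to 104%, lie below all Cas-20% points, at 14.9 to 17.2% and 108 to 128%.

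Other genes of protein synthesis were read from lists around the ribosome. Of all genes 24.9% were called under casein, 17% in Soy-10% against Soy-20% + SAA, here called the soy comparison, and 0.866% in Soy-10% against Soy-20%. Of 21 translation factors and other proteins with TOP mRNAs, 10 were higher and none lower in Cas-5% than in Cas-20% (median log2 fold change 0.202), 3 were higher in the soy comparison (median 0.080), and none passed against Soy-20% (median 0.129). *Npm1*, a nucleolar chaperone, rose by 0.53 ± 0.06 under casein restriction (edgeR adjusted p = 9.33e-06) and by 0.27 in the soy comparison, and *Eef1g*, a subunit of the factor that reloads EF1A, rose by 0.48 under casein. Of 43 ribosome biogenesis genes 13 were higher and 1 lower under casein (median 0.145), and 5 were higher and 3 lower in the soy comparison (median 0.003), a share near that of all genes. Against Soy-20% none passed (median 0.024). *Nop58*, of the box C/D particles that guide ribosomal RNA methylation, rose by 0.70 ± 0.08 (edgeR adjusted p = 5.52e-06) and *Nolc1* by 0.46, and the one that fell was *Nop10*, of the pseudouridylation particles, by 0.30.

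In 2 further lists the share called was below that of all genes under casein and somewhat above it in the soy comparison. Of 31 other initiation and elongation factors 3 rose and 2 fell under casein (median 0.017), 4 rose and 2 fell in the soy comparison (median −0.031), and none passed against Soy-20% (median 0.021). *Eif2s2*, a subunit of the factor that brings the initiator tRNA, rose by 0.56 under casein and *Eif5a* fell by 0.50. Of 24 genes that control ribosomal protein mRNAs 4 rose and 1 fell under casein (median 0.044), 4 rose and 2 fell in the soy comparison (median 0.184), and 1 rose against Soy-20% (median 0.013). *Eif4ebp1*, an inhibitor of cap-dependent initiation that mTORC1 phosphorylates, rose by 0.68 ± 0.08 under casein (edgeR adjusted p = 6.11e-06) by 0.39 in the soy comparison and by 0.33 against Soy-20% (edgeR adjusted p = 0.0386). *Sesn2*, a leucine sensor upstream of mTORC1, rose by 0.80 under casein. *Rptor*, a subunit of mTORC1, and *Tsc1*, an inhibitor of it, fell by 0.47 and 0.35 in the soy comparison, and were at −0.12 ± 0.09 and −0.06 ± 0.09 against Soy-20%, neither passing. These lists were not refitted without Soy-20% + SAA libraries 3 to 6.

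The ribosomal proteins of mitochondria had medians below 0. Of 74 such genes tested in the casein comparison 2 were higher and 15 lower in Cas-5%, with a median of −0.102, and in the soy comparison 3 were higher and 7 lower, with a median of −0.070. Both shares were below those of all genes, and against Soy-20% none of 75 passed (median −0.015). *Mrps27* fell by 0.45 and *Mrps5* by 0.30 under casein, whereas *Mrpl19* rose by 0.40. Of 19 pseudogene rows of cytosolic ribosomal proteins that could be tested, 2 were higher in Cas-5% (*Rps24-ps3* by 0.68 and *Rpl10-ps3* by 0.37) and none passed in the soy comparison. The median of these rows was 0.275 under casein, and reads shared with the members may be among them. That was not tested.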

How the data were processed

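Per the labels, total liver RNA was made into QuantSeq 3′ libraries and mapped to GRCm38 in the provider's pipeline; the aligner and the counter are not given in the sources used here, and the submitters' processing notes name DESeq2 1.30 and R 4.0.3. The authors deposited a table of raw counts per gene, already limited to 14173 genes with at least 90 reads over the 30 libraries, and a second table of signal values, the same counts divided by a size factor of each library (0.759 to 1.297), which are the normalised counts in the text. Members, gene lists and tests were chosen with earlier results of these data known. Genes were filtered with filterByExpr and scaled by TMM, and edgeR 4.0.16 (R 4.3.3) was fitted by quasi-likelihood on the libraries of the groups compared, with Benjamini-Hochberg adjustment over all genes tested and a threshold of 0.05. The casein minus soy difference was a contrast of 4 groups. DESeq2 1.42.0, library totals, no count filter, all 5 diets in 1 fit, a replicate block, the GC slope of each library as a covariate and leaving out single livers were alternatives. Replicates are separate mice. Symbols and the GC content of the last 200 nucleotides came from GENCODE M21, and starts from RefSeq on GRCm38.p6. Paralog ratios were compared by exact permutation of 6 against 6 livers. Genes named in the text were the 8 called members of smallest p per direction in the 2 main comparisons, up to 5 per direction in the others and 10 in the difference, the 5 highest and 5 lowest in level, the paralogs with their partners, *Rplp0*, *Rplp1*, *Rplp2*, *Rpsa* and *Fau*, the 3 highest and 3 lowest in GC, and 2 called genes of smallest p per direction in other lists. Others are said to be chosen for their values, and 1 gene that the rule names is not reported here. The matching of library columns to samples left 0 columns over. No 2 libraries held identical values. The fit was tested on simulated counts. 3 rows without a symbol match the rule by GENCODE name; they are processed pseudogenes and were not counted as members.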

Additional observations from a re-analysis of the deposited data

Results flagged for a closer look

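Of 310 groups of 6 livers examined for a lone extreme value, 12 were flagged by Dixon's criterion at its 95% level, where chance at 1 in 20 gives about 16. Among the members, *Rpl24* was highest in Soy-10% liver 2 at a normalised count of 84.8 (next 70.6), *Rpl8* highest in Soy-10% liver 4 at 2862 (next 2720), *Rps27* lowest in Soy-10% liver 4 at 2423 (next 3034), *Rps28* lowest in Soy-10% liver 6 at 2999 (next 3144) and *Rps6* highest in Cas-5% liver 2 at 394.2 (next 256.2). The *Rpl36al* to *Rpl36a* ratio was lowest in Soy-10% liver 5, at 15.75% (next 23.18%).

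Among the marker sums, the Kupffer cell sum was highest in Soy-10% liver 6 at 6358 (next 4292), the stellate sum in Soy-20% + SAA liver 2 at 5209 (next 4056) and the erythroid sum in Soy-10% liver 2 at 36650 (next 17920). The acinar sum was 1.8 in Cas-5% liver 6 (next 0), 8.6 in Soy-20% + SAA liver 4 (next 2.8) and 6556 in Soy-10% liver 4 (next 2.0).

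The casein and soy changes differed in 11 members by the edgeR contrast of both changes, among them with log2 differences of 0.55 in *Rpl13*, 0.42 in *Rpl7*, 0.49 in *Rps12*, 0.53 in *Rps20*, 0.43 in *Rps15a*, 0.37 in *Rpl21*, 0.39 in *Rps19*, 0.37 in *Rpl8*, 0.46 in *Rpl13a* and 0.56 in *Rpl4*. None was called once the GC slope of the libraries was a covariate, where the median difference over the 82 members was 0.157 against 0.187 before.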

How the results depend on the processing

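The casein result was the most stable of those examined, with 57 to 78 members called in Cas-5% against Cas-20% under the alternatives. The 78 came with library totals, where 4661 of 12076 genes passed. The 57 came, among others, without Cas-20% liver 4, where 2726 of 12172 genes did. Of the 64, 54 passed in every setting and 57 in every setting that left out 1 liver. The 8 named members passed in 160 of 160 settings. The 9 named members of Soy-10% against Soy-20% + SAA passed in 179 of 198 and the 10 of the casein minus soy difference in 264 of 350. Named members were picked for the smallest p in the same livers, and most settings only left out 1 liver. The tallies of named members therefore do not measure stability. The count of 22 in Soy-10% against Soy-20% + SAA became 40 with library totals and 11 with Soy-20% + SAA libraries 1 and 2 alone, and leaving out 1 liver gave 12 (without Soy-20% + SAA liver 3 or Soy-10% liver 1, 5 or 6) to 24 (without Soy-10% liver 4). Over all genes 2093 of 11983 passed with library totals, 317 of 12483 with libraries 1 and 2 alone and 1733 of 12109 without Soy-10% liver 4. The count of 1 in Soy-10% against Soy-20% became 6 with library totals, 6 with DESeq2, 0 without a filter and 0 with the GC covariate, and 0 to 8 without 1 liver (8 without Soy-20% liver 5). All genes passing were 116 of 11897 with library totals, 217 of 13048 with DESeq2 and 135 of 12001 without Soy-20% liver 5. The count of 0 in Soy-20% against Soy-20% + SAA became 6 with DESeq2, 7 with all 5 diets in 1 fit, 14 with libraries 3 to 6 alone and 0 to 6 without 1 liver. Of all genes 873 of 11695 passed with DESeq2, 1793 of 12561 with all 5 diets and 1587 of 11974 without Soy-20% + SAA liver 1, which gave 6 members. The count of 2 in Cas-20% against Soy-20% + SAA became 8 with library totals, 14 with DESeq2, 21 with all 5 diets, 29 with libraries 3 to 6 alone, 0 with libraries 1 and 2 alone, 0 with the GC covariate and 0 to 16 without 1 liver (16 without Soy-20% + SAA liver 1). Beside these, 425 of 11988 genes passed with library totals and 1135 of 10871 with DESeq2. With all 5 diets 2331 of 12561 did, and without Soy-20% + SAA liver 1 1817 of 12073. The count of 2 in Cas-5% against Soy-10% became 23 with library totals, 0 with all 5 diets and 0 to 7 without 1 liver (7 without Cas-5% liver 1). There 1574 of 12041 genes passed with library totals, 900 of 12561 with all 5 diets and 1154 of 12128 without Cas-5% liver 1. The 11 of the difference became 36 with library totals, 7 without a filter, 18 with DESeq2, 34 with libraries 3 to 6 alone, 0 with libraries 1 and 2 alone, 0 with the GC covariate and 6 to 30 without 1 liver (30 without Soy-20% + SAA liver 1). For the difference 1587 of 12532 genes passed with library totals, 1352 of 11958 with DESeq2 and 1941 of 12611 without Soy-20% + SAA liver 1. The calls over all genes moved as well. With libraries 3 to 6 alone 4182 of 12183 genes passed in Soy-10% against Soy-20% + SAA. In Soy-20% against Soy-20% + SAA 2978 of 12127 did, in Cas-20% against Soy-20% + SAA 3112 of 12166, and in the difference 2728 of 12724. With libraries 1 and 2 alone fewer livers enter, and other causes were not tested.

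Same-numbered livers of different diets did not deviate together (median r −0.047 to 0.052, with at most 2 of 6 pairs over 0.1), so the numbers were not taken as pairs. With a replicate block 58 members were called in the casein comparison, 19 and 1 in Soy-10% against Soy-20% + SAA and against Soy-20%, 0 in Cas-20% against Soy-20% + SAA, 4 in Cas-5% against Soy-10% and 10 in the difference. The 1 against Soy-20% was not *Rps12*, the member called in the main fit. In the same order 2656 of 12076, 2014 of 11983, 80 of 11897, 141 of 11988, 1370 of 12041 and 1272 of 12532 genes passed.

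Of the paralog ratios, that of *Rpl22l1* in Soy-10% against Soy-20% turned to −0.019 without Soy-20% liver 6 (range −0.019 to 0.136 without 1 liver), and that of *Rps27l* in Cas-20% against Soy-20% + SAA ranged from −0.033 to 0.043 without 1 liver, with −0.007, −0.004 and −0.014 among them. The *Rpl7l1* and *Rps27l* ratios in the casein comparison kept an adjusted p of 0.0173 to 0.026 in each exact permutation test without 1 liver. *Rpl24*, with 50 to 105 reads per liver, had the lowest counts of the members.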
